A study of Mus musculus with 17 samples.

Results

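The genes described here encode the factors that start and extend protein chains on cytosolic ribosomes, the eukaryotic initiation factors (eIFs) and elongation factors (eEFs), together with a few direct regulators whose names begin in the same way. A gene was a member if its symbol began with Eif or Eef followed by a digit and if at least 1 of its transcripts was annotated as protein coding. The eIF2 kinases and the numbered pseudogenes were left out. The rule gave 83 genes, 69 with an Eif and 14 with an Eef symbol, among 55357 genes in the files. Of these, 65 passed the filter on low counts, as did 22784 genes in all.

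The samples were β cells from islets of male mice on a C57BL/6 background. All groups carried the RIP-Cre transgene, in which the rat insulin promoter drives Cre in β cells, and a Cre-dependent tdTomato reporter in the Rosa26 locus. Control mice carried these alleles alone, and Pcbp2βKO mice were in addition homozygous for a floxed Pcbp2 allele. By the paper's staining, this depleted β cells of most, but not all, of the RNA-binding protein PCBP2. Isolated islets were kept in culture for 72 hours, with glucose at 2.8 mM in one set of cultures and at 16.7 mM in the other, and live tdTomato+ cells were then sorted for poly(A) RNA sequencing. There were 3 control samples at 2.8 mM, 4 control samples at 16.7 mM, and 5 Pcbp2βKO samples at each concentration, 17 in all. Neither the labels nor the methods say whether replicates were separate animals, so the p values measure the spread between these samples, which may be technical in part. A Cre-positive control has no separate Cre-negative group beside it, and an effect of the transgene itself cannot be told apart from the shared background.

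Initiation is a relay. The 43S complex forms when eIF2 brings the initiator tRNA to the small ribosomal subunit, with eIF1, eIF1A, eIF3 and eIF5 in place, and eIF2B reloads eIF2 with GTP after each round. The eIF4F complex binds the mRNA cap through eIF4E, unwinds the leader with the helicase eIF4A and its helper eIF4B, and connects to eIF3 through the scaffold eIF4G, while the 4E-BP proteins can hold eIF4E away from eIF4G. After the subunits join, eEF1A delivers each aminoacyl-tRNA, the eEF1B complex recharges eEF1A, and eEF2 moves the ribosome forward by a codon. Several mRNAs of this machinery belong to the TOP class, whose leaders begin with a C followed by a run of pyrimidines and whose translation follows the activity of the kinase mTORC1. In β cells the system carries an unusually heavy load, because glucose raises the synthesis of proinsulin.

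The sequences below show how the 5′ ends of member transcripts differ in this feature. They are the first 25 bases from the annotated start in RefSeq (GRCm38.p6), and capitals mark a run of 5 or more C or T letters that begins with C within the first 5 bases, searched on the transcript strand only. The first 4 have the run and differ in how their mRNA responded to glucose, and the last 3 lack it although their mRNA fell.

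Eif3f, chr7:108934415-108934439, plus strand: CTCTCTTTCTCggcaagatggcttc
Eif2s3x, chrX:94212627-94212651, minus strand: CTTTTCTCTCCgagcaagatggctg
Eif2s3y, chrY:1010595-1010619, plus strand: aCTTCCTTCTTTCgtgagcaagatg
Eif4g1, chr16:20672727-20672751, plus strand: gCCCTCTgcgccggtcacgtggggc
Eef1a1, chr9:78481700-78481724, minus strand: ttcccgagggtgggggagaacggta
Eef2, chr10:81176631-81176655, plus strand: gttgacgtcagcggtctcttccgcc
Eif4b, chr15:102073773-102073797, plus strand: cgccgcgccaccccctcgcgctgct

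A start was found for 48 of the 65 tested members, and 7 of them, or 14.6%, had the run, against 11.5% of the 27018 genes in the table. The annotated start need not be the one used in β cells, and a missing run says only that these letters are not in this window. Eif2s3x and Eif2s3y, which encode the same subunit of eIF2 from the X and the Y chromosome, both had a run, of 11 and 12 letters.

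The files held between 47385513 and 82419400 estimated counts per sample, and the second lowest total was 65070242. Values are given as CPM, which are counts scaled to a common library size with TMM factors, unless TPM, which is corrected for transcript length, is named. Pcbp2 itself averaged 62.5 ± 11.4 CPM (SD, n = 3) in control and 17.4 ± 1.39 CPM (n = 5) in Pcbp2βKO cells at 2.8 mM, and 40.4 ± 5.27 CPM (n = 4) and 7.66 ± 1.68 CPM (n = 5) at 16.7 mM, without overlap between the genotypes. Along the first principal component, 3 of the samples at 16.7 mM (control replicate 4 and Pcbp2βKO replicates 4 and 5, at 9.87 to 33.2) stood between the other 16.7 mM samples (90.9 to 99.1) and the 2.8 mM samples (at or below -42.4). The summed CPM of 8 β cell markers was highest at 16.7 mM, with medians of 407518 against 117920.3 in control cells. This sum largely follows the insulin genes it includes. In control cells Ins2 averaged 79882 CPM at 2.8 mM and 251895 CPM at 16.7 mM, and Ins1 10659 and 71872 CPM. Summed markers of α cells (5 genes) and macrophages (5 genes) had higher medians at 2.8 mM than at 16.7 mM in both genotypes, with values given after the glucose results. In bulk RNA, fewer cells of a type cannot be told apart from less RNA per cell.

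By TPM averaged over all samples, Eif1, which guides the choice of the start codon, was the most abundant member at 1303 TPM, ahead of Eef1a1 at 1081 TPM. Eif5 at 353, Eif5a at 336 and Eef2 at 287 TPM followed, but their order differed between the groups. In control cells at 16.7 mM Eif5a averaged 255 ± 15.7, Eif5 185 ± 60.3 and Eef2 103 ± 30.8 TPM, whereas in Pcbp2βKO cells at 2.8 mM Eif5 averaged 607 ± 104, Eef2 547 ± 64.4 and Eif5a 459.7 ± 60.2 TPM. Eif1 and Eef1a1 overlapped at 2.8 mM, between 1611 and 2557 and between 1597 and 1893 TPM in control cells. At 16.7 mM the means lay further apart, at 789.7 ± 131 and 473 ± 149 TPM in control cells and at 671 ± 98 and 419.8 ± 122 TPM in Pcbp2βKO cells, with ranges that still overlapped. At the other end, 18 members did not pass the filter. They were 15 numbered Eif1ad genes, Eif4a3l1, Eif4a3l2 and Eef1a2, none exceeded 0.178 CPM in any sample, and 6 had no count at all. A further gene of this kind, Eif1ad19, passed the filter at no more than 0.191 CPM in any sample and was not called in any comparison. Eef1a2, the form of eEF1A known from neurons and muscle, had 41 estimated counts over all 17 samples, so that nearly all eEF1A mRNA in these cells was Eef1a1.

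Many of these mRNAs were lower at 16.7 mM than at 2.8 mM glucose in control β cells. Of 65 tested members, 19 fell and 2 rose at an adjusted p under 0.05 with a fold change over 1.5 (edgeR quasi-likelihood test, Benjamini-Hochberg adjustment over all genes), which is 29.2% and 3.08%. Among all genes tested, 6.69% fell and 7.15% rose in the same comparison. By adjusted p alone, 20 members fell and 3 rose, against 8.15% and 7.78% of all genes. The median log2 fold change was -0.21 over the members and 0.04 over all genes, and 47 of the 65 members had a negative value. Without overlap between the glucose groups, 23 members were lower and 2 higher at 16.7 mM, against 12.3% and 11.8% of all genes, and the called members were among them apart from Eif2b4. The count of calls rested in part on control replicate 2 at 2.8 mM, without which 12 members were called instead of 21. The share of all genes called without this sample is not given, so the drop is no result particular to the members. This test did not pair samples. With the replicate number as a block, 21 members were called, 19 of them shared, without Eef1b2 and Eef1g and with Eif5a2 and Eef1akmt3. Summed over all members, the level fell from between 12536 and 15681 CPM to between 9108 and 9935 CPM.

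In Pcbp2βKO cells 22 members fell and 2 rose, which is 33.8% and 3.08%, against 10.4% and 13.4% of all genes. By adjusted p alone 31 fell and 4 rose, against 14.2% and 15.8% of all genes. The median log2 fold change was -0.29 over the members and 0.01 over all genes. Without overlap, 28 members were lower and 3 higher, against 10.8% and 10.9% of all genes, and Eif5a2 was the called member that overlapped. Between the genotypes, 19 members were called in both, which is 90.5% of those called in control and 79.2% of those called in Pcbp2βKO cells. These comparisons share no sample, but they come from the same fit with a shared estimate of the spread. The matching shares over all genes are not given, so this overlap is no result particular to the members. Eef1b2 and Eif2b4 were called in control cells alone, and Eef1akmt3, Eif1ad, Eif3d, Eif3g and Eif5a2 in Pcbp2βKO cells alone. None of these 7 was called by the interaction test given further on. That test called 1 gene of all those tested, so the lack of a call does not show equal responses.

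**Figure D1:**
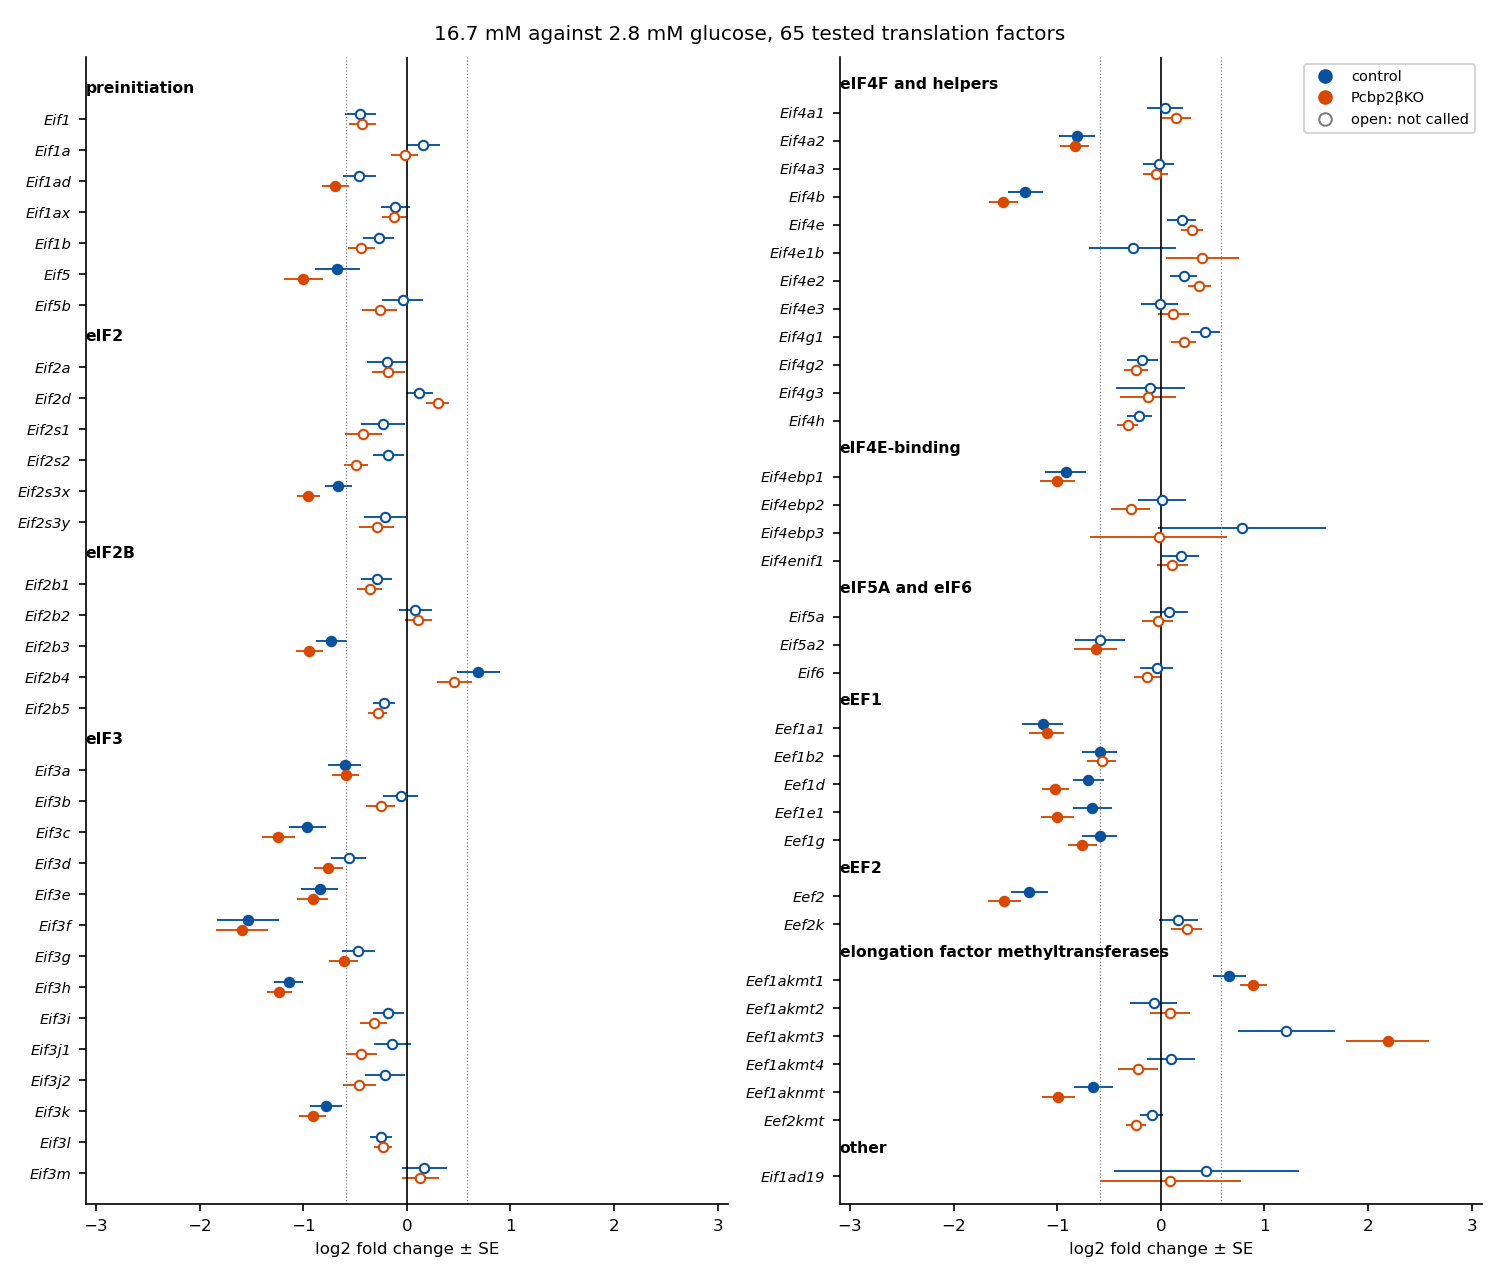
Log2 fold change (x axis) of 16.7 mM against 2.8 mM glucose, with its standard error, for each of the 65 tested members, grouped by role, in control cells (blue) and Pcbp2βKO cells (orange). Filled points passed an adjusted p of 0.05 and a fold change of 1.5 (dotted lines). Filled points lie on the left for the eEF1 and eEF2 subunits, Eif4b and part of eIF3, and few lie on the right.

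How the samples were scaled moved these counts. With total counts in place of TMM, the median over all genes was itself -0.35 in control and -0.47 in Pcbp2βKO cells, and in log2(TPM + 1) it was -0.24 and -0.33. Ins2 took between 8.90% and 9.03% of all counts in control cells at 2.8 mM and between 18.2% and 25.7% at 16.7 mM. Relative to the median of all genes, the members' median was lower by 0.25 with TMM, by 0.23 with total counts, by 0.71 with log2(TPM + 1) and by 0.44 with log2(TPM + 0.1) in control cells, so the TPM value depended on the pseudocount. DESeq2 size factors left the median of all genes at 0.04, and with them 19 of the 21 control calls were kept, while Eef1b2 and Eef1g lost theirs by fold.

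Elongation factors fell together. All 5 tested genes of eEF1 fell in control cells, and 4 of 5 fell past both thresholds in Pcbp2βKO cells. Eef1a1, which encodes the carrier of aminoacyl-tRNA, was at 3329, 3201 and 2596 CPM in control cells at 2.8 mM and at 1386, 1298, 1208 and 1612 CPM at 16.7 mM. In Pcbp2βKO cells it was at 3389, 3208, 2932, 2532 and 2095 CPM at 2.8 mM and at 1293, 1313, 1269.7, 1778 and 953 CPM at 16.7 mM. Every sample at 16.7 mM was thus below every sample at 2.8 mM of the same genotype. The log2 fold change was -1.14 ± 0.20 (SE) in control cells (adjusted p = 0.00146) and -1.10 ± 0.17 in Pcbp2βKO cells (adjusted p = 0.000103).

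Eef2, the translocase, was at 1648, 1208 and 1165 CPM in control cells at 2.8 mM and at 624, 525, 435 and 636 CPM at 16.7 mM. In Pcbp2βKO cells its values were 1754, 1506, 1632, 1471 and 1532 CPM at 2.8 mM and 556, 545, 499, 749 and 431 CPM at 16.7 mM. The glucose groups did not overlap in either genotype, and the log2 fold changes were -1.27 ± 0.18 (adjusted p = 0.000597) and -1.51 ± 0.16 (adjusted p = 5.06e-06). Its kinase Eef2k, which phosphorylates and inactivates eEF2, averaged 14.9 ± 1.55 CPM (SD, n = 3) and 16.9 ± 1.11 CPM (n = 4) in control cells and did not pass (adjusted p = 0.595). In Pcbp2βKO cells Eef2k did not pass either (adjusted p = 0.245).

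The partners of eEF1A fell as well. Eef1d, a GTP exchange subunit, fell by 0.70 ± 0.15 on the log2 scale in control cells (adjusted p = 0.00587) and by 1.02 ± 0.13 in Pcbp2βKO cells (adjusted p = 2.35e-05). Eef1e1, a small protein of the aminoacyl-tRNA synthetase complex, fell by 0.66 ± 0.19 (adjusted p = 0.0229) and by 1.00 ± 0.16 (adjusted p = 0.000154), but the control call was lost without replicate 1 or 2 at either concentration (-0.67 to -0.52, adjusted p from 0.0647 to 0.145). Eef1b2, the other exchange subunit, and Eef1g, the subunit that anchors the complex, lay at the fold threshold in control cells. Eef1b2 fell by 0.59 ± 0.17 (adjusted p = 0.0247) and Eef1g by 0.59 ± 0.17 (adjusted p = 0.0257). With the replicate number as a block, both still passed the adjusted p but not the fold threshold, with Eef1b2 at -0.51 (adjusted p = 0.00648) and Eef1g at -0.54 (adjusted p = 0.0134). Leaving out control samples singly also ended the call of Eef1b2 in 4 of 7 cases (replicates 1 and 2 at 2.8 mM, 3 and 4 at 16.7 mM, -0.58 to -0.47) and that of Eef1g in 5 of 7 (replicates 1 and 2 at 2.8 mM, 2, 3 and 4 at 16.7 mM, -0.59 to -0.50). In Pcbp2βKO cells Eef1g fell by 0.76 ± 0.14 (adjusted p = 0.000607), and Eef1b2 passed the adjusted p but fell just short of the fold threshold at -0.57 ± 0.14 (adjusted p = 0.00492).

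**Figure D2:**
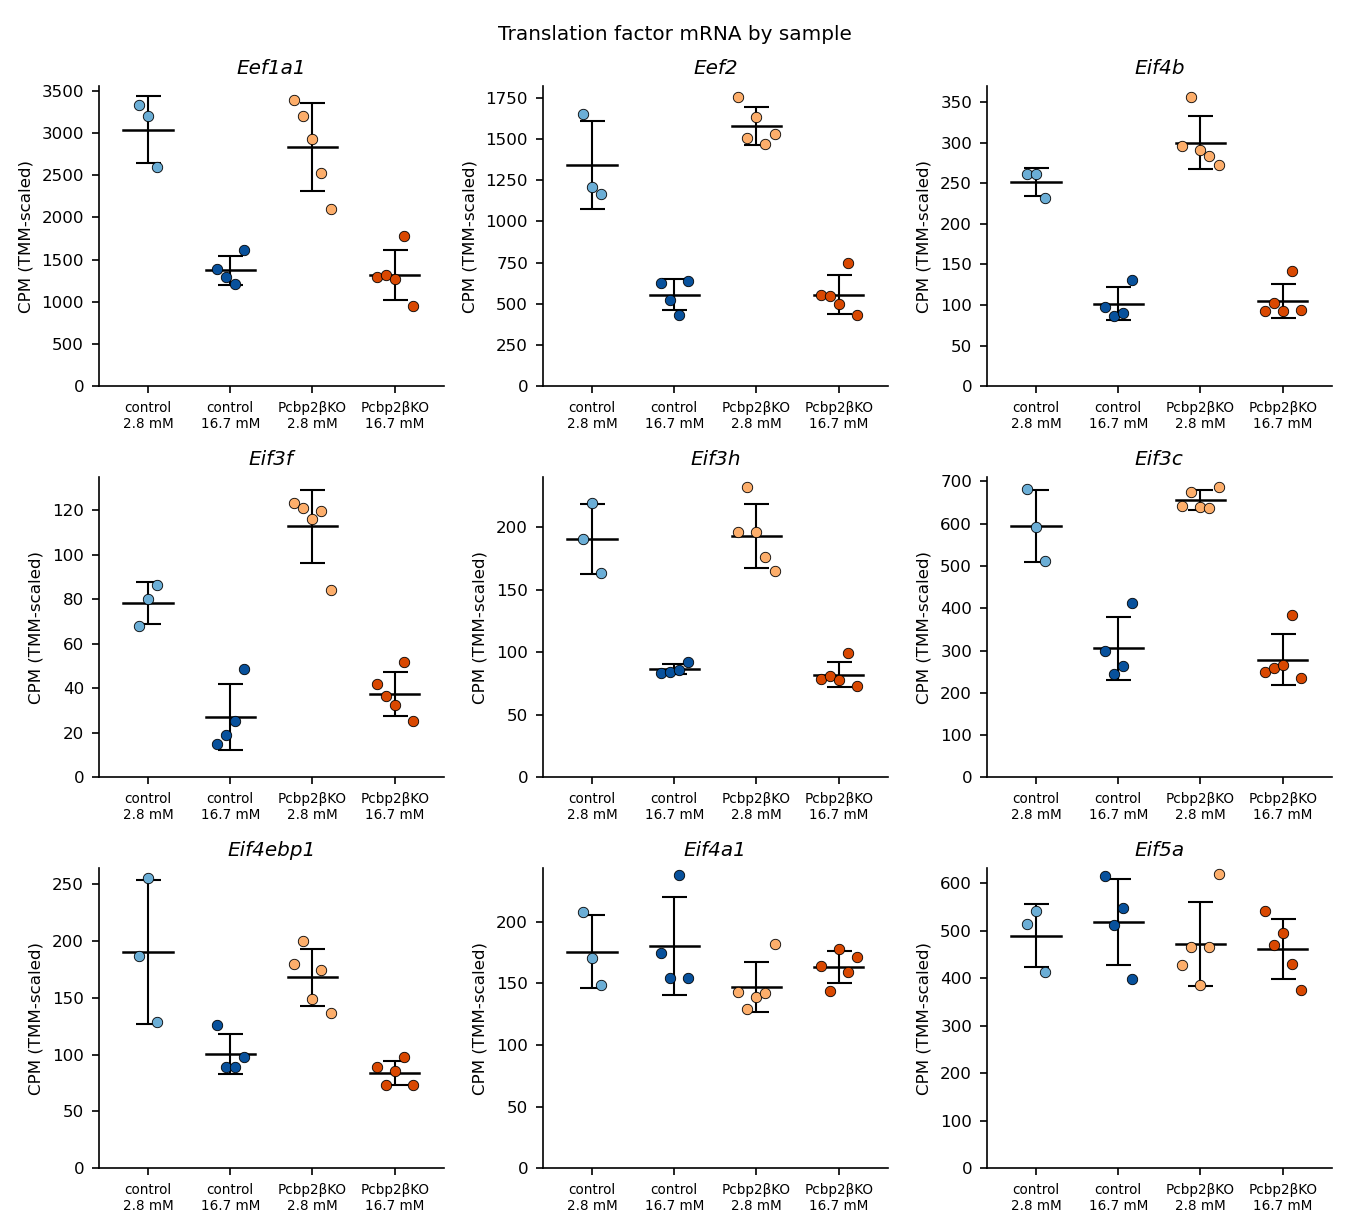
TMM-scaled CPM (y axis, from 0) of 9 members in each sample, with the mean (line) and SD (whiskers) of the 4 groups. Eef1a1, Eef2, Eif4b, Eif3f, Eif3h, Eif3c and Eif4ebp1 were lower at 16.7 mM than at 2.8 mM in every sample of each genotype, while Eif4a1 and Eif5a overlapped.

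Enzymes that methylate the elongation factors did not move as a group. Eef1akmt1, a lysine methyltransferase of eEF1A, rose from 15.2 ± 0.420 CPM (n = 3) to 24.1 ± 4.16 CPM (n = 4) in control cells (log2 fold change 0.66 ± 0.16, adjusted p = 0.0101) and by 0.89 ± 0.13 in Pcbp2βKO cells (adjusted p = 8.88e-05). Its log2 fold change turned to -0.17 in both genotypes in log2(TPM + 1), where the medians of all genes were -0.24 and -0.33. Eef1akmt3, of the same class, rose by 2.19 ± 0.40 in Pcbp2βKO cells (adjusted p = 0.00051) at a low level, from 0.576 ± 0.226 to 2.62 ± 1.15 CPM (n = 5 each). It did not pass in control cells (1.21 ± 0.47, adjusted p = 0.0925), although it did with the replicate block (1.29, adjusted p = 0.0235) and without control replicate 4 at 16.7 mM (1.51, adjusted p = 0.0178). Eef1aknmt, which methylates eEF1A at its amino terminus and at a lysine, fell by 0.65 ± 0.19 in control (adjusted p = 0.0263) and by 0.99 ± 0.16 in Pcbp2βKO cells (adjusted p = 0.000185). Its control call was lost without any of replicates 1, 2 and 3 at 2.8 mM or replicates 2 and 3 at 16.7 mM (-0.69 to -0.60, adjusted p from 0.0537 to 0.0998), and that of Eef1akmt1 without replicate 2 at 2.8 mM or replicate 1 at 16.7 mM (0.65 and 0.58). Eef1akmt2, Eef1akmt4 and Eef2kmt passed in neither genotype.

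The subunits of eIF3, the scaffold of the 43S complex, changed to very different degrees. Of 14 genes, 6 fell in control cells and 8 in Pcbp2βKO cells, none rose, and log2 fold changes ran from -1.53 to 0.17 and from -1.59 to 0.13. Eif3f had the lowest TMM-scaled log2 fold change of the members in both genotypes. It did not differ beyond its standard error from Eif4b (-1.31 in control and -1.52 in Pcbp2βKO cells) and Eef2 (-1.27 and -1.51). Eif3f was at 67.9, 80.1 and 86.6 CPM in control cells at 2.8 mM and at 15, 19.2, 25.5 and 48.6 CPM at 16.7 mM. The highest of the latter, replicate 4, is among the 3 samples that stood between the glucose groups, and it was still below every sample at 2.8 mM. In Pcbp2βKO cells Eif3f was at 123, 121, 116, 119.8 and 84.0 CPM at 2.8 mM and at 41.7, 36.4, 32.5, 51.7 and 25.3 CPM at 16.7 mM. The log2 fold change was -1.53 ± 0.30 in control cells (adjusted p = 0.00305) and -1.59 ± 0.25 in Pcbp2βKO cells (adjusted p = 0.000171).

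Eif3h, which with Eif3f forms the pair of MPN-domain subunits of the complex, was at 190.1, 219 and 163 CPM in control cells at 2.8 mM and at 83.5, 84.5, 85.4 and 92.5 CPM at 16.7 mM. The Pcbp2βKO samples were at 196, 232, 196, 176 and 165 CPM at 2.8 mM and at 78.9, 80.8, 77.9, 99.2 and 73.2 CPM at 16.7 mM. It fell by 1.14 ± 0.14 and by 1.23 ± 0.12 on the log2 scale and gave, in control cells, the smallest adjusted p among the members (0.000254, and 2.81e-06 in Pcbp2βKO cells). Eif3c, a core subunit that contacts eIF1 and eIF5, was at 682, 591 and 511 CPM in control cells at 2.8 mM and at 299.8, 245, 263 and 412 CPM at 16.7 mM. In Pcbp2βKO cells Eif3c was at 642, 675, 639, 637 and 687 CPM at 2.8 mM and at 249, 259, 265, 384 and 234 CPM at 16.7 mM. It fell by 0.96 ± 0.18 (adjusted p = 0.00266) and by 1.24 ± 0.16 (adjusted p = 2.26e-05), and its highest samples at 16.7 mM were again the replicates 4.

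Eif3e, Eif3k and Eif3a also fell in both genotypes. In control cells the log2 fold changes were -0.84 ± 0.18 for Eif3e (adjusted p = 0.00461), -0.78 ± 0.15 for Eif3k (adjusted p = 0.00299) and -0.60 ± 0.16 for Eif3a (adjusted p = 0.0163), the largest subunit. In Pcbp2βKO cells they were -0.91 ± 0.15 (adjusted p = 0.000185), -0.91 ± 0.13 (adjusted p = 5.63e-05) and -0.59 ± 0.13 (adjusted p = 0.00274). Eif3a lay at the fold threshold, and its call was lost without replicate 2 at 2.8 mM or replicate 1 or 2 at 16.7 mM in control cells (-0.55 to -0.52). In Pcbp2βKO cells it was lost with the replicate block (-0.57) and without replicate 2 or 5 at 2.8 mM or replicate 2, 3 or 5 at 16.7 mM (-0.58 to -0.46). Eif3d, which can bind the cap of some mRNAs, and Eif3g, an RNA-binding subunit, fell past both thresholds in Pcbp2βKO cells, at -0.76 ± 0.14 (adjusted p = 0.000558) and -0.61 ± 0.14 (adjusted p = 0.00258), and Eif3g missed the fold threshold without replicate 2 or 5 at 2.8 mM or replicate 2 at 16.7 mM (-0.58 to -0.51). In control cells Eif3d was at -0.56 ± 0.17 (adjusted p = 0.0291) and Eif3g at -0.47 ± 0.16 (adjusted p = 0.0599). Eif3b, Eif3i, Eif3j1, Eif3j2, Eif3l and Eif3m were called in neither genotype, and Eif3m averaged 150.1 ± 34.5 CPM (n = 3) and 169 ± 35.6 CPM (n = 4) in control cells, with a log2 fold change of 0.17 ± 0.22 (adjusted p = 0.665).

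In the cap-binding complex, 2 of 12 genes of eIF4F and its helpers, Eif4b and Eif4a2, fell past both thresholds in each genotype and none rose past both. Eif4h, the other helper of the helicase, was at -0.21 ± 0.12 in control cells (adjusted p = 0.249) and at -0.32 ± 0.10 in Pcbp2βKO cells, where it passed the adjusted p (0.0197) but not the fold threshold. Eif4b, the helper of the helicase, was at 262, 261 and 232 CPM in control cells at 2.8 mM and at 97.8, 86.4, 90.8 and 131 CPM at 16.7 mM. In Pcbp2βKO cells it was at 296, 356, 291, 284 and 272 CPM at 2.8 mM and at 93.0, 102, 92.9, 142 and 94.1 CPM at 16.7 mM. The log2 fold changes were -1.31 ± 0.17 (adjusted p = 0.00034) and -1.52 ± 0.14 (adjusted p = 2.61e-06), and the glucose groups did not overlap in either genotype.

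The helicase eIF4A has a pair of main forms, and their mRNAs gave different results. Eif4a2 was at 350.2, 511 and 372 CPM in control cells at 2.8 mM and at 190.3, 240.4, 235 and 272 CPM at 16.7 mM, and in Pcbp2βKO cells at 457, 614, 438, 432 and 380.3 CPM and at 254, 257, 231, 293 and 272 CPM. It fell by 0.81 ± 0.17 (adjusted p = 0.00488) and by 0.83 ± 0.14 (adjusted p = 0.000335). Eif4a1 was at 208, 170.4 and 149 CPM in control cells at 2.8 mM and at 175, 154, 238 and 154 CPM at 16.7 mM, and in Pcbp2βKO cells at 143, 129.5, 139, 142 and 182 CPM and at 164, 144, 178, 159.6 and 171 CPM. These groups overlapped in both genotypes, with adjusted p = 0.915 and adjusted p = 0.457 on the TMM scale, while in log2(TPM + 1) Eif4a1 fell by 0.81 in control cells (adjusted p = 0.00122), where the median of all genes was -0.24. The ratio of the pair does not depend on the scaling of a sample. In TPM, Eif4a2 over Eif4a1 was 1.62, 2.82 and 2.41 in control cells at 2.8 mM and 1.07, 1.47, 0.966 and 1.68 at 16.7 mM, which overlap by 1 sample of each group. The Pcbp2βKO samples were 2.88, 4.22, 2.92, 2.95 and 1.87 at 2.8 mM and 1.54, 1.69, 1.31, 1.82 and 1.46 at 16.7 mM, without overlap.

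**Figure D3:**
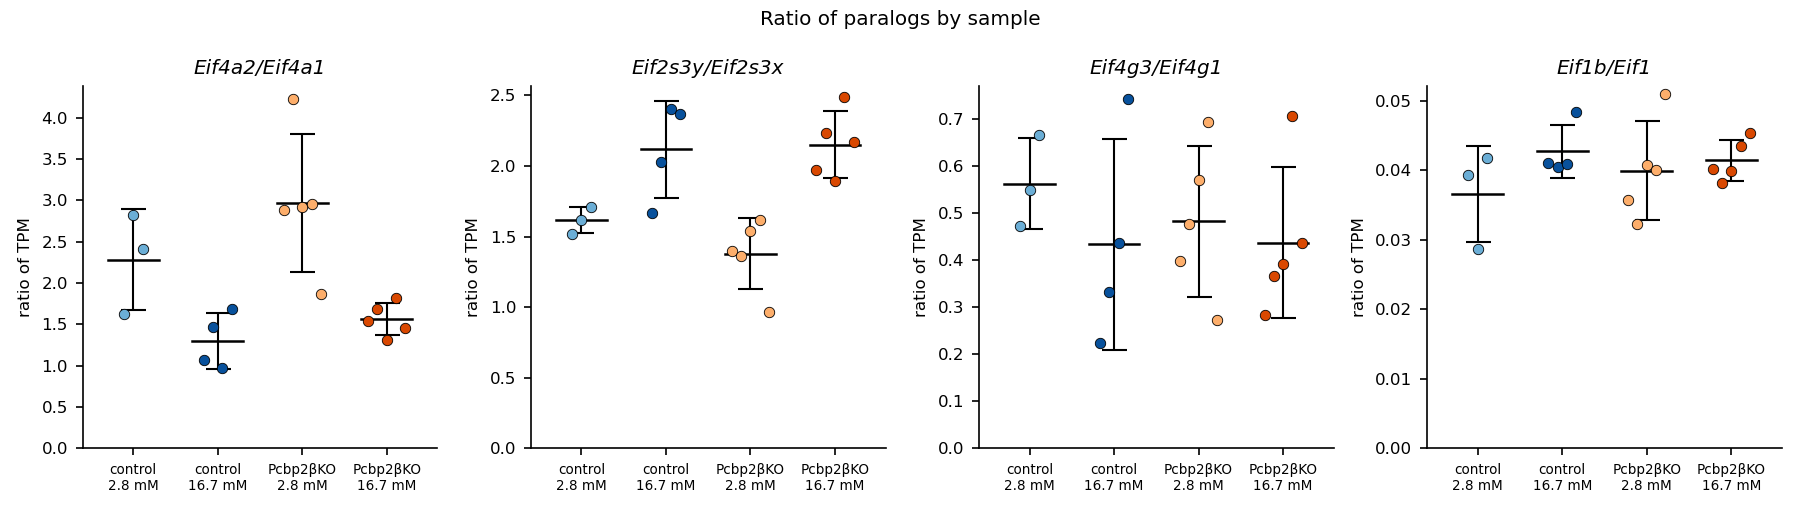
Ratio of TPM (y axis, from 0) of 4 pairs of related members in each sample, with the mean and SD of each group. Eif4a2 over Eif4a1 was lower and Eif2s3y over Eif2s3x higher at 16.7 mM in Pcbp2βKO cells without overlap, whereas Eif4g3 over Eif4g1 and Eif1b over Eif1 overlapped in both genotypes.

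On the TMM scale, the cap-binding subunit and the scaffolds differed little between the glucose concentrations. Eif4e was at 195, 209.8 and 192 CPM in control cells at 2.8 mM and at 189, 239, 263 and 224 CPM at 16.7 mM (adjusted p = 0.359), and in Pcbp2βKO cells at 201, 187, 148, 157 and 169 CPM and at 237, 223, 191, 193 and 217 CPM (adjusted p = 0.0574). Eif4g1, the main scaffold, was at 117, 108 and 103 CPM in control cells at 2.8 mM and at 171, 134, 169.9 and 116 CPM at 16.7 mM. It passed the adjusted p in control cells (0.43 ± 0.14, adjusted p = 0.0489) but not the fold threshold, and neither in Pcbp2βKO cells (0.22 ± 0.12, adjusted p = 0.173). Eif4g2, which supports cap-independent initiation, averaged 872 ± 19.7 and 771 ± 83.2 CPM in control cells (n = 3 and 4, adjusted p = 0.469) and 709.9 ± 100.2 and 601 ± 74.9 CPM in Pcbp2βKO cells (n = 5 each, adjusted p = 0.158). In log2(TPM + 1) Eif4g2 passed as lower in both genotypes, and Eif4e, Eif4g1 and Eif4g3 did in Pcbp2βKO cells. The medians of all genes in that setting were -0.24 in control and -0.33 in Pcbp2βKO cells. Among the other pairs, Eif4g3 over Eif4g1 had medians of 0.55 and 0.384 in control cells, and Eif4e3 over Eif4e of 0.0719 and 0.0623, with overlapping groups.

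Among the eIF4E-binding proteins, 1 of 4 tested genes fell in each genotype and none rose. Eif4ebp1, which encodes 4E-BP1 and is a known ATF4 target in β cells, was at 187, 255 and 129 CPM in control cells at 2.8 mM and at 126, 88.8, 89.4 and 97.5 CPM at 16.7 mM. In Pcbp2βKO cells it was at 180, 200, 149, 174 and 137 CPM and at 89.2, 73.2, 85.8, 97.5 and 73.5 CPM. The groups did not overlap, but in control cells the gap was narrow, and without control replicate 2 at 2.8 mM, the highest sample, the call was lost (log2 fold change -0.66, adjusted p = 0.0531). With all samples it fell by 0.92 ± 0.20 (adjusted p = 0.00515) in control cells and by 1.00 ± 0.17 (adjusted p = 0.000221) in Pcbp2βKO cells. Eif4ebp2 was far less abundant, at 10.2, 8.68 and 9.39 CPM in control cells at 2.8 mM and at 9.16, 7.89, 8.43 and 12.3 CPM at 16.7 mM (adjusted p = 0.992). In Pcbp2βKO cells Eif4ebp2 was at 9.21, 7.75, 11.2, 16.8 and 12.5 CPM and at 7.61, 9.79, 8.95, 8.88 and 11.6 CPM (adjusted p = 0.282). Per length, its mRNA amounted to between 0.00537 and 0.0454 of that of Eif4ebp1, so that the 4E-BP mRNA of these cells was nearly all Eif4ebp1. Eif4ebp3 and Eif4enif1 passed in neither genotype.

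Among the factors of the 43S complex, Eif5 and Eif2s3x fell. Eif5, the activator of GTP hydrolysis by eIF2, was at 814, 1097 and 771 CPM in control cells at 2.8 mM and at 424, 505, 588 and 722 CPM at 16.7 mM. The Pcbp2βKO samples were at 822, 1065, 687, 774 and 1034 CPM and at 452, 450, 430.3, 567 and 285 CPM. It fell by 1.00 ± 0.19 in Pcbp2βKO cells (adjusted p = 0.000613), and by 0.67 ± 0.22 in control cells, where the call was weak (adjusted p = 0.0469) and was lost when replicate 1, 2 or 3 of either concentration was left out (-0.77 to -0.50, adjusted p from 0.0527 to 0.235). Eif1 was at 1334, 1821 and 1146 CPM in control cells at 2.8 mM and at 1075, 1013, 1124 and 988 CPM at 16.7 mM, and in Pcbp2βKO cells at 1232, 1477, 1069, 1205 and 1309 CPM and at 954, 928, 855, 897 and 1047 CPM. These groups did not overlap either, yet the change missed the adjusted p in control cells (-0.45 ± 0.15, adjusted p = 0.0541) and the fold threshold in Pcbp2βKO cells (-0.43 ± 0.13, adjusted p = 0.0169). Eif1ad, named for its similarity to eIF1A, fell by 0.69 ± 0.13 in Pcbp2βKO cells (adjusted p = 0.000726) and was at -0.46 ± 0.16 in control cells (adjusted p = 0.057), and without Pcbp2βKO replicate 5 at 2.8 mM the first call was lost (-0.55). Eif1a, Eif1ax, Eif1b and Eif5b did not pass both thresholds in either genotype.

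The γ subunit of eIF2, which binds the initiator tRNA, is encoded on both sex chromosomes. Eif2s3x averaged 109 ± 5.57 CPM (n = 3) and 68.7 ± 10 CPM (n = 4) in control cells, and 118 ± 14.3 and 61.3 ± 3.47 CPM in Pcbp2βKO cells (n = 5 each). It fell by 0.66 ± 0.13 (adjusted p = 0.00316) and by 0.95 ± 0.11 (adjusted p = 1.17e-05), and in control cells it fell just short of the fold threshold (-0.58) without replicate 1 at 16.7 mM. Eif2s3y averaged 74.7 ± 4.24 and 64.5 ± 16.3 CPM in control cells (adjusted p = 0.531) and 69.9 ± 13.2 and 57.1 ± 8.59 CPM in Pcbp2βKO cells (adjusted p = 0.206). Chosen after these values had been seen, the TPM ratio of Eif2s3y to Eif2s3x was 1.52 to 1.71 (control, 2.8 mM) and 1.67 to 2.40 (control, 16.7 mM), and from 0.967 to 1.62 and from 1.89 to 2.49 in Pcbp2βKO cells. The Y-linked copy thus made up a larger part of this mRNA at 16.7 mM in Pcbp2βKO cells, without overlap. Eif2s1, the subunit that the stress kinases phosphorylate, was unequal among samples, from 69.5 to 113 CPM at 16.7 mM in control cells, and passed in neither genotype (adjusted p = 0.521 and adjusted p = 0.0818). Eif2s2, Eif2a and Eif2d did not pass both thresholds.

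In eIF2B, the exchange factor of eIF2, 1 subunit fell in both genotypes and 1 rose in control cells. Eif2b3 fell from 60.8 ± 9.37 to 36.5 ± 5.49 CPM in control cells (n = 3 and 4, log2 fold change -0.73 ± 0.15, adjusted p = 0.00447) and by 0.94 ± 0.13 in Pcbp2βKO cells (adjusted p = 4.46e-05). Eif2b4 rose from 33.6 ± 5.22 to 54.0 ± 12.4 CPM in control cells (0.69 ± 0.21, adjusted p = 0.0341) and was at 0.46 ± 0.17 in Pcbp2βKO cells (adjusted p = 0.0528). Its control value was -0.11 in log2(TPM + 1), where the median of all genes was -0.24. The control call of Eif2b4 was also lost without any of replicates 2 and 3 at 2.8 mM or replicates 1, 2 and 3 at 16.7 mM (0.57 to 0.72, adjusted p from 0.0559 to 0.15). Eif2b5, the catalytic subunit, averaged 89.0 ± 9.27 and 76.6 ± 6.10 CPM in control cells (adjusted p = 0.194) and was lower by 0.28 ± 0.09 in Pcbp2βKO cells, past the adjusted p (0.0257) but not the fold threshold. Eif2b1 and Eif2b2 passed both thresholds in neither genotype.

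Eif5a and Eif6 did not pass the test in either genotype on the TMM scale. Eif5a, which carries hypusine and relieves stalled ribosomes, was at 514, 541 and 414 CPM in control cells at 2.8 mM and at 615, 512, 548 and 399 CPM at 16.7 mM. In Pcbp2βKO cells it was at 429, 465, 385, 466 and 619.9 CPM and at 541, 471, 495, 431 and 375 CPM. The ranges overlapped in both genotypes, with adjusted p = 0.816 and adjusted p = 0.905 on the TMM scale. In log2(TPM + 1) it passed as lower in both genotypes (-0.75 and -1.06), where the medians of all genes were -0.24 and -0.33. Eif5a2, its scarce paralog, fell by 0.63 ± 0.21 in Pcbp2βKO cells (adjusted p = 0.0259), a call that was lost without replicate 1 or 2 at 2.8 mM or replicate 3 or 5 at 16.7 mM (-0.59 to -0.46, adjusted p from 0.0532 to 0.0899). In control cells it was at -0.59 ± 0.24 (adjusted p = 0.114), and with the replicate block at -0.67 (adjusted p = 0.0347). Eif6, which keeps the large subunit from joining too early, averaged 80.5 ± 11.5 and 78.5 ± 17.7 CPM in control cells (adjusted p = 0.917) and 67.2 ± 4.77 and 61.2 ± 7.49 CPM in Pcbp2βKO cells (adjusted p = 0.502). Like Eif5a, Eif6 passed as lower in both genotypes in log2(TPM + 1).

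Members of the TOP class fell together. The list held 9 mRNAs (Eef1a1, Eef1b2, Eef1d, Eef1g, Eef2, Eif3e, Eif3f, Eif3h and Eif4b), taken from general knowledge of the class but at a time when results of these data were known, so its count is no independent evidence. All 9 fell past both thresholds in control cells and 8 of 9 in Pcbp2βKO cells, with median log2 fold changes of -1.14 and -1.10. With the replicate block, fitted over all 17 samples, Eef1b2 and Eef1g missed the fold threshold in control cells, as given above, and the other 7 remained called. A block fitted in control replicates 1 to 3 alone lost the same calls. Among the other 56 tested members, 10 fell and 2 rose in control cells and 14 fell and 2 rose in Pcbp2βKO cells, with medians of -0.16 and -0.25. The annotated pyrimidine run shown above and this list were not the same set. Eif3f alone had it among the 5 members of the list with an annotated start, and Eif4g1, which has a run, was not among the members that fell. Over all tested genes with an annotated start, 168 of 1744 genes with the run fell in control cells (9.63%), against 1000 of 12343 genes without it (8.10%), and the shares were 13.0% and 12.1% in Pcbp2βKO cells.

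The summed levels of marker lists of other cells and of proliferation genes were compared between the glucose groups. In control cells, the summed level of 5 macrophage markers ranged from 18.8 to 68.9 CPM at 2.8 mM and from 2.44 to 15.5 CPM at 16.7 mM, and in Pcbp2βKO cells from 27.5 to 157 and from 1.71 to 13.9 CPM. The sum of 5 α cell markers ranged from 638 to 2566 CPM and from 262 to 1463 CPM in control cells, and from 1473 to 9196 and from 174 to 1322 CPM in Pcbp2βKO cells. PP cell markers (2 genes) summed to between 1111 and 1208 and between 368 and 999 CPM in control cells, without overlap, and to between 1431 and 7425 and between 470.3 and 1456 CPM in Pcbp2βKO cells. Delta cell markers (3 genes) summed to between 251 and 389.8 and between 147 and 335 CPM, and to between 480.4 and 1316 and between 198 and 565 CPM. In Pcbp2βKO cells all 5 macrophage, both PP, 2 of 3 delta and 2 of 4 tested α cell markers were called lower, and in control cells 1 macrophage and 1 delta marker. The sum of 6 proliferation genes ranged from 3.99 to 5.93 and from 8.18 to 62.2 CPM in control cells, where none was called. In Pcbp2βKO cells it ranged from 4.07 to 12.8 and from 2.18 to 271 CPM, with medians of 6.0 and 129.5 CPM, and all 6 were called higher. Ductal cell markers (3 genes) went the other way, at 14.6 to 21.7 and 21.1 to 26.7 CPM in control cells. In Pcbp2βKO cells they summed to 10.9 to 17.4 and 18.5 to 24.0 CPM, without overlap. Endothelial and stellate cell markers (4 genes each) also had higher medians at 16.7 mM in both genotypes, at no more than 1.19 CPM in any sample. Acinar cell markers (6 genes) had lower medians there. No tested ductal, endothelial, stellate or acinar marker was called. No listed marker was at 0 in every sample. The part of these differences in the results above was not tested.

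Below the level of genes, 326 transcripts of the members were tested among 65504. In control cells 29 fell and 1 rose, from 19 genes, whereas 2.46% of all tested transcripts fell and 2.22% rose. In Pcbp2βKO cells 51 fell and 12 rose, from 35 genes, against 6.24% and 7.57% of all tested transcripts. Kallisto divides reads among transcripts that share sequence, so that values of single transcripts are less certain than sums per gene. Leaving out single control samples lowered the count from 30 to 10 and 7 (replicates 1 and 2 at 2.8 mM) and to 19, 14 and 15 (replicates 1, 2 and 3 at 16.7 mM). The shares of all transcripts called in these fits are not given. By annotation, the 29 that fell in control cells included 21 of 171 tested protein coding transcripts and 4 of 21 targets of nonsense-mediated decay (NMD). The others were 3 of 38 processed transcripts and 1 of 96 that retained an intron. Shares over all transcripts of each annotation are not given.

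Eif4a2 had transcripts that changed in opposite directions. The coding transcript Eif4a2-201 had 156, 205 and 172 CPM in control cells at 2.8 mM and 83.4, 93.9, 95.4 and 139 CPM at 16.7 mM, and fell by 0.78 ± 0.21 (adjusted p = 0.0411). The NMD transcript Eif4a2-209 had 110.5, 196 and 121 CPM and 37.7, 67.6, 58.3 and 68.0 CPM, and fell by 1.29 ± 0.36 (adjusted p = 0.0485). Against these, the coding transcript Eif4a2-202 had 15.5, 14.9 and 22.3 CPM at 2.8 mM and 25.4, 41.9, 42.3 and 23.1 CPM at 16.7 mM, and rose by 0.92 ± 0.24 (adjusted p = 0.0381). It was the only transcript of a member called higher in control cells, and it rose by 1.08 ± 0.20 in Pcbp2βKO cells (adjusted p = 0.00166), where Eif4a2-201 fell by 0.73 ± 0.17 (adjusted p = 0.00934) and Eif4a2-209 by 1.48 ± 0.30 (adjusted p = 0.00374). Not all NMD transcripts were lower. Eif4a2-203, at a low level, had 1.24 to 1.84 CPM at 2.8 mM and 2.95 to 9.8 CPM at 16.7 mM in control cells. In Pcbp2βKO cells it had 0.0949 to 1.3 and 1.13 to 8.37 CPM, which overlap. The share of Eif4a2 counts on transcripts without a coding annotation was 37.3% to 43.8% (control, 2.8 mM) and 29.5% to 36.9% (control, 16.7 mM), and from 21.2% to 43.0% and from 17.9% to 31.3% in Pcbp2βKO cells, where the groups overlapped.

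**Figure D4:**
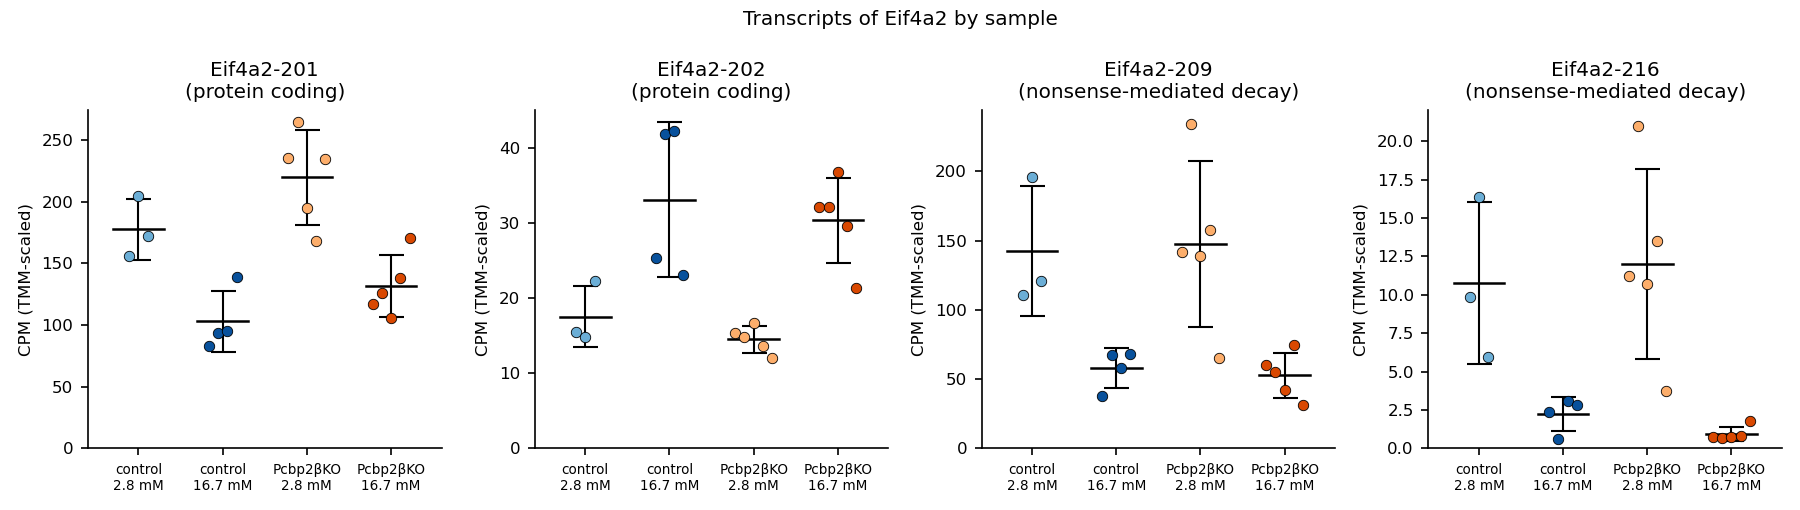
TMM-scaled CPM (y axis, from 0) of 4 Eif4a2 transcripts in each sample, with the mean and SD of each group. Eif4a2-201, Eif4a2-209 and Eif4a2-216 were lower and Eif4a2-202 was higher at 16.7 mM than at 2.8 mM in every control sample.

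Other transcripts that fell in control cells included the decay target Eif4a2-216, which fell by 2.27 ± 0.56 (adjusted p = 0.0294). For Eif4ebp1, the coding transcript Eif4ebp1-201 fell by 0.89 ± 0.19 (adjusted p = 0.0153) and the processed transcript Eif4ebp1-202 by 0.97 ± 0.22 (adjusted p = 0.0217), so both forms of this mRNA went the same way. For Eif3a, the retained-intron transcript Eif3a-202 fell by 0.83 ± 0.20 (adjusted p = 0.0261), and with protein-coding transcripts alone the gene no longer passed the fold threshold (-0.46, adjusted p = 0.0406). Calls for Eef1b2, Eef1g, Eef1aknmt and Eif5 in control cells were likewise lost when protein-coding transcripts alone were summed.

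Knockout of Pcbp2, which was not complete, left no member past the thresholds. In the edgeR test, 0 of 65 members were called between Pcbp2βKO and control cells at 2.8 mM, where 2.04% of all genes were called, and 0 of 65 at 16.7 mM, where 1.71% of all genes were called. At an unadjusted p under 0.05 there were 4 members at each concentration, against 12.9% and 12.1% of all genes. DESeq2 called 0 members as well, with 3 and 4 at an unadjusted p under 0.05. The median log2 fold change of the members was 0.02 at 2.8 mM and -0.09 at 16.7 mM, beside 0.03 and 0.01 over all genes, and 29 of 65 members had a negative value at 2.8 mM and 51 of 65 at 16.7 mM. No transcript of a member was called in either comparison by edgeR, in which 0.504% and 0.392% of all transcripts were called, nor for the interaction given next (0.00153%).

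At 16.7 mM the members nearest to a difference were Eif2b3 (-0.38, adjusted p = 0.228), Eif4g2 (-0.36, adjusted p = 0.231), Eif6 (-0.36, adjusted p = 0.286) and Eif3i (-0.31, adjusted p = 0.352), all on the log2 scale. At 2.8 mM they were Eef1akmt3 (-1.15, adjusted p = 0.238), Eif2b5 (0.24, adjusted p = 0.325), Eif4g2 (-0.30, adjusted p = 0.386) and Eef1akmt1 (-0.32, adjusted p = 0.386). Eif4g2 was lower in every Pcbp2βKO sample than in every control sample at both concentrations, from 584 to 814 CPM against 850 to 887 CPM at 2.8 mM, and from 477 to 660.2 CPM against 683 to 873 CPM at 16.7 mM. Such a lack of overlap on the low side was seen in 4 members (Eif4g2, Eif4e1b, Eef1akmt1 and Eef1akmt3) and 6.88% of all genes at 2.8 mM, and in 1 member and 2.64% of all genes at 16.7 mM. On the high side it was seen in 1 member (Eif4b) and 4.06% of all genes at 2.8 mM, and in 0 members and 1.85% of all genes at 16.7 mM. Eif3f was higher by 0.53 and by 0.47 in Pcbp2βKO cells at 2.8 mM and 16.7 mM without passing (adjusted p = 0.484 and adjusted p = 0.532). It was the member that depended on a sample, since without control replicate 4 at 16.7 mM the difference was 0.90 (adjusted p = 0.0261) and without all 3 samples that stood apart 0.89 (adjusted p = 0.0194).

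**Figure D5:**
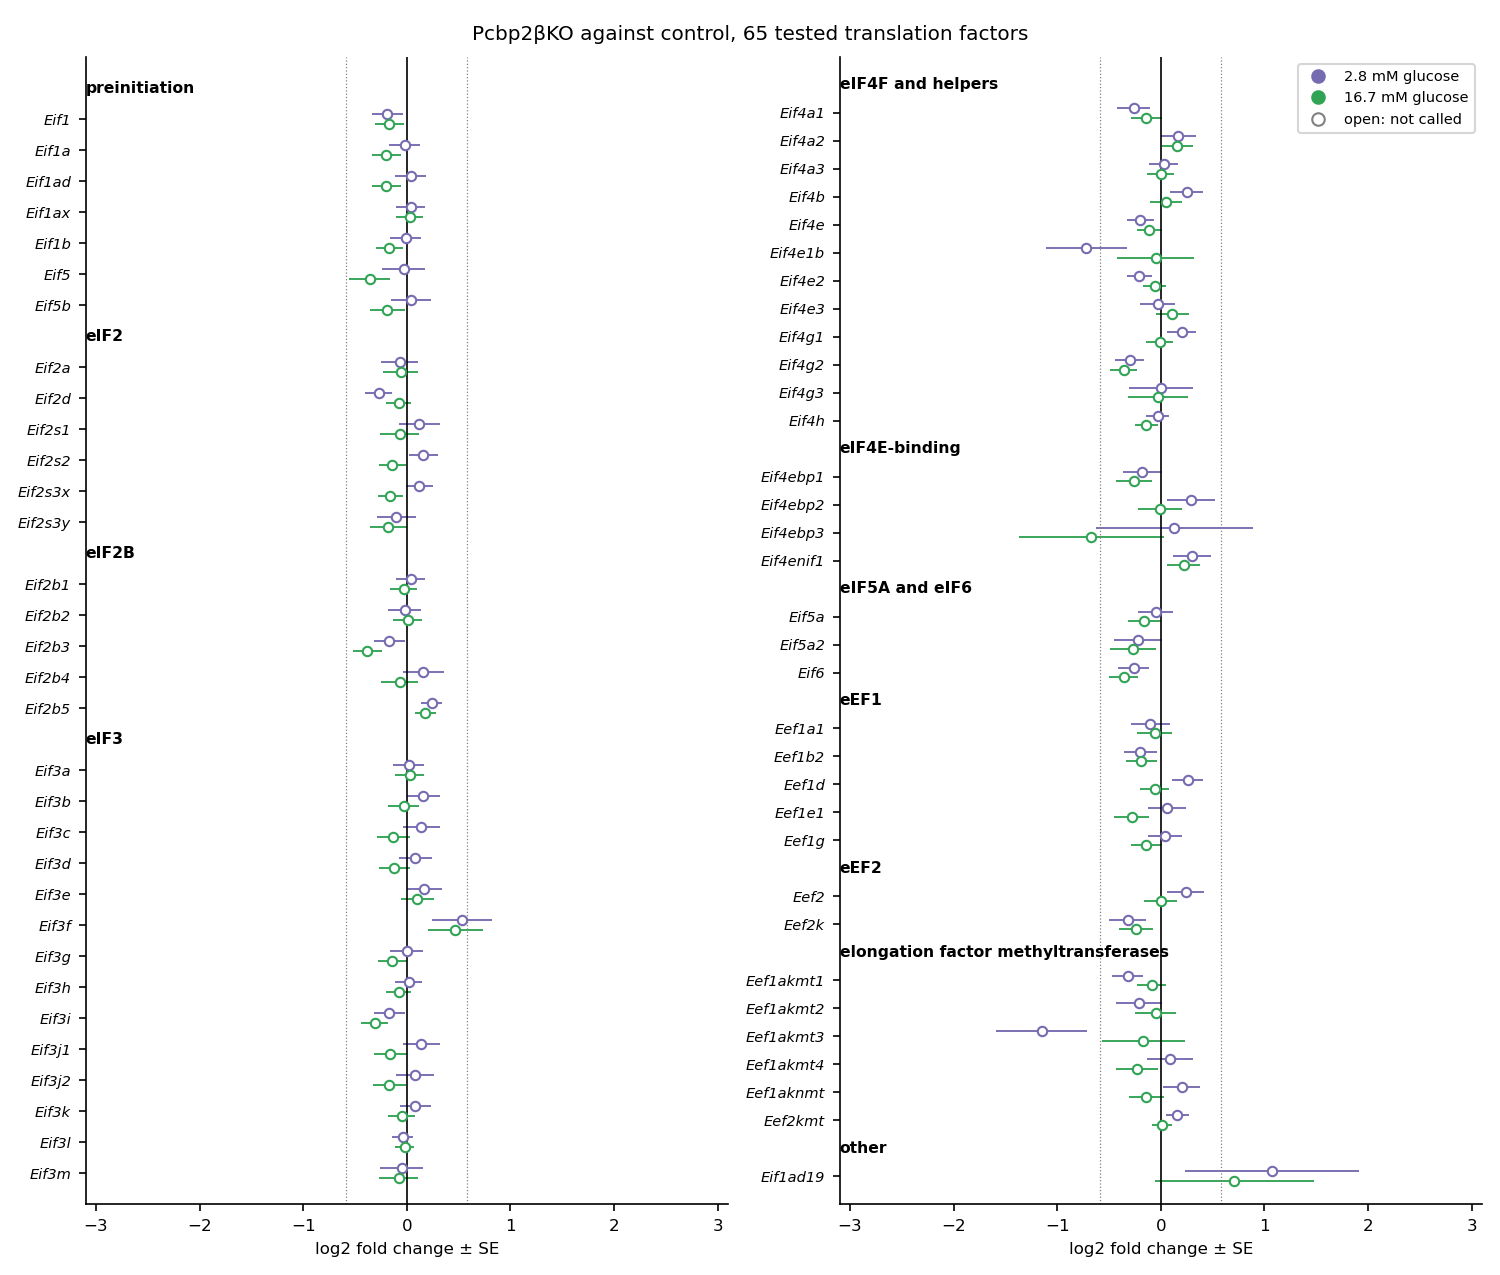
Log2 fold change (x axis) of Pcbp2βKO against control cells, with its standard error, for the 65 tested members by role, at 2.8 mM (purple) and 16.7 mM glucose (green). All points are open, since none passed an adjusted p of 0.05 with a fold change over 1.5.

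The interaction of genotype and glucose, which asks whether the response to glucose differed between the genotypes, was called for 0 of 65 members by edgeR, and for 1 gene (0.00439%) of all genes tested. No member had an unadjusted p under 0.05, in edgeR or in DESeq2, and DESeq2 called 0 members too. Log2 interaction values had a median of -0.10 over the members and of -0.01 over all genes, 48 of 65 members had a negative value, and those of the eIF3 subunits lay between -0.30 and 0.02.

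Further genes of protein synthesis were counted in 6 lists, to be read against the 13.8% of all genes called for glucose in control and the 23.8% in Pcbp2βKO cells. Among 6 genes for the eIF2 kinases and phosphatase subunits, Ppp1r15a, which directs the phosphatase to eIF2, fell in control cells (-0.96 ± 0.30, adjusted p = 0.035), and none passed both thresholds in Pcbp2βKO cells. Of 15 other regulators of initiation and elongation, 1 rose and 3 fell in control cells and 2 rose and 3 fell in Pcbp2βKO cells. Dhps, the first enzyme in the synthesis of hypusine on eIF5A, fell from 57.8 ± 9.34 to 25.1 ± 5.23 CPM in control cells (n = 3 and 4, log2 fold change -1.20 ± 0.19, adjusted p = 0.000854) and by 1.12 ± 0.16 in Pcbp2βKO cells (adjusted p = 6e-05), while Eif5a itself did not pass on this scale. Mknk1, a kinase of eIF4E, fell by 0.72 ± 0.20 (adjusted p = 0.0206) and by 0.99 ± 0.17 (adjusted p = 0.000297), and Eefsec, the selenocysteine elongation factor, by 0.71 ± 0.18 (adjusted p = 0.0129) and by 0.68 ± 0.15 (adjusted p = 0.00244). Pdcd4, an inhibitor of eIF4A, rose by 0.80 ± 0.18 (adjusted p = 0.00736) and by 1.10 ± 0.15 (adjusted p = 4.26e-05), and Mknk2, the other eIF4E kinase, rose by 1.33 ± 0.21 in Pcbp2βKO cells (adjusted p = 0.000177).

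Of 20 cytosolic tRNA synthetases, 3 fell in control cells (Eprs, Sars and Yars, at -0.80, -0.76 and -0.83), and 4 fell and 1 rose in Pcbp2βKO cells (Eprs, Sars, Yars and Aars at -1.16, -0.99, -1.08 and -0.72, and Lars at 0.68). Of 7 termination and recycling factors, Gspt2, a release factor, rose in Pcbp2βKO cells (0.68 ± 0.14, adjusted p = 0.000991) and none passed both thresholds in control cells. Of 10 mTORC1 genes, none passed both in control cells and Tsc2, an inhibitor of the complex, rose in Pcbp2βKO cells (0.60 ± 0.12, adjusted p = 0.00128). Mtor was the one gene of all these lists that was called for the knockout, lower by 0.75 ± 0.16 in Pcbp2βKO than in control cells at 2.8 mM (adjusted p = 0.0149). Of 9 mitochondrial translation factors, Mtif3 fell in Pcbp2βKO cells (-0.59 ± 0.12, adjusted p = 0.00113), and none passed both in control cells.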

How the data were processed

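Poly(A) RNA of sorted β cells was sequenced in 17 samples. Per the labels and the study's methods, the authors quantified transcripts with kallisto and deposited, for each sample, estimated counts, TPM and effective transcript lengths, used here only in an alternative way of summing. The processing notes name edgeR too. Versions, and the levels of the study's batch term, are not given in the sources used here.

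Here the deposited estimated counts were summed per Ensembl gene identifier and rounded. Totals ran from 47385513 to 82419400 per sample, and TMM factors from 0.7518 to 1.288. Genes were filtered with filterByExpr (minimum count 10, minimum total 15) and tested with the edgeR 4.0.16 quasi-likelihood test in R 4.3.3, with the 4 group means in 1 fit of all 17 samples and no batch term. P values were adjusted over all 22784 genes, and calls needed an adjusted p under 0.05 together with a fold change over 1.5. Transcripts were tested in the same way. TPM, as the authors deposited it, was summed per gene for levels between genes and for ratios. DESeq2 1.42.0 and limma 3.58.1 on log2(TPM + 1) and log2(TPM + 0.1) were alternatives, as were other scalings, filters and sums, a replicate block, and leaving out samples. The scripts were tested on simulated data with 200 changed genes. No 2 samples had the same counts (largest correlation 0.975).

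Replicate numbers were checked for pairing. Deviations from the group means of same-numbered control samples at the 2 glucose concentrations correlated at 0.123 to 0.258 in 3 pairs, all over the limit of 0.1, and these were taken as paired. The main test did not use this pairing, which entered only the fits with a replicate block. Apart from a fit of control replicates 1 to 3, these blocked all 17 samples by number, across genotypes and glucose concentrations. In the other group pairs compared the lowest value was between 0.047 and 0.0664, and numbers were not taken as pairing. In Pcbp2βKO cells, however, same-numbered samples at the 2 concentrations correlated at 0.0664 to 0.193. Those with different numbers correlated at -0.116 to 0.0445, so the main test may ignore a pairing there too.

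The members and lists were chosen with earlier results of these data known. Named were all called members, a fixed set of core factors, called genes of the related lists, Pcbp2 and Ins2. Sample values were given for at most 15 of them. 5′ ends came from RefSeq (GRCm38.p6).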

Additional observations from a re-analysis of the deposited data

Results flagged for a closer look

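Within a group, the highest or lowest sample of 37 named members was compared with the spread of the others (Dixon's test at the 95% level) in 111 groups of 4 or 5 samples. A single sample stood far from the others in 10 of them, where chance gives about 5.55, or 1 in 20 groups.

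In Pcbp2βKO cells at 2.8 mM, replicate 5 was high for Eef1aknmt at 62.8 CPM (others 37.0 to 43.9), for Eif1ad at 94.0 CPM (58.2 to 65.3) and for Eif4a1 at 182 CPM (129.5 to 143). The same sample was low for Eif3f at 84.0 CPM (116 to 123), and replicate 2 was high for Eif4b at 356 CPM (272 to 296). In Pcbp2βKO cells at 16.7 mM, replicate 4 was high for Eif2b3 at 35.5 CPM (25 to 27.6), Eif3c at 384 CPM (234 to 265) and Eif4b at 142 CPM (92.9 to 102), each towards the values at 2.8 mM. This sample is among the 3 that stood apart on the first principal component. Replicate 5 of that group, also among the 3, was low for Eef1g at 151 CPM (229 to 253). In control cells at 16.7 mM, replicate 1 was high for Eif3k at 72.6 CPM (52.2 to 53.7).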

How the results depend on the processing

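The number of members called for glucose in control cells (21) became 53 and 55 in log2(TPM + 1) and log2(TPM + 0.1), and 12 to 21 when 1 sample was left out, with 12 without control replicate 2 at 2.8 mM. In Pcbp2βKO cells (24) it became 45 with total counts and 59 and 60 in the TPM settings, and 21 to 25 with 1 sample left out. The median of all genes was itself -0.24 and -0.56 in the TPM settings in control cells. In Pcbp2βKO cells it was -0.47 with total counts and -0.33 and -0.71 in the TPM settings. Shares of all genes or transcripts called in these settings and with samples left out are not given. Neither the larger nor the smaller counts are therefore a result about the members. The members' median log2 fold change in control cells was -0.58 with total counts, -0.95 and -1.0 in TPM, and -0.27 to -0.13 with 1 sample left out, and in Pcbp2βKO cells -0.77, -1.26, -1.34 and -0.34 to -0.29. Medians for the knockout at 2.8 mM were 0.14, 0.15, 0.16 and -0.07 to 0.10, and those of the interaction -0.20, -0.32, -0.32 and -0.19 to -0.04. For the knockout at 16.7 mM, 1 member (Eif3f) was called without the 3 samples that stood apart, and 0 to 1 with 1 sample left out. Transcript calls in control cells (30) became 54 with total counts and 7 to 29 with 1 sample left out. Log2 fold changes reversed in the TPM settings for Eef1akmt1 in control cells (-0.17 and -0.17) and Pcbp2βKO cells (-0.17 and -0.18), and for Eif2b4 in control cells (-0.11 and -0.12). All of these values lay above the medians of all genes in the same settings. The cause of these changes was not tested. In every fit with 1 sample left out, 11 of the 21 members stayed called in control cells and 20 of 24 in Pcbp2βKO cells.

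With the replicate number as a block, 21 members were called in control cells (19 of them shared) and 21 in controls alone, 23 in Pcbp2βKO cells, where Eif3a lost its call by fold (-0.57), and 0 for the knockout and the interaction. For transcripts in control cells, a replicate block added after seeing the data gave 30. Only in control cells did the numbers meet the rule for pairing. Levels under about 1 CPM rest on few counts and limit what can be said of the rare members.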
